A study of Mus musculus with 6 samples.

Results

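Expression of 10 genes of definitive endoderm and simple epithelium was followed in mouse embryos, in dissected node and primitive streak tissue. They were the endoderm transcription factor genes Sox17, Foxa1 and Hhex, the genes of the secreted factors Cer1 and Trh, the keratin genes Krt8, Krt18 and Krt19, and the claudin genes Cldn6 and Cldn7. All probe sets annotated with 1 of these symbols and no other were taken, which gave 14 probe sets for 10 genes, out of 45037 probe sets and 18193 genes measured. Sox17 and Cer1 had 2 probe sets each, Krt8 had 3 and the other genes had 1. A gene's main probe set was the one with the highest mean log2 signal over all 6 arrays.

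The tested pools came from Wnt3a null embryos and the others from embryos with wild-type Wnt3a, both on a mixed C57BL/6 and 129/Sv background, at embryonic day 7.75 to 8 with 0 to 2 somites. Wnt3a is a secreted Wnt ligand made in this region, and the study asked which genes depend on it before the mutant embryos look abnormal. Each array carried amplified RNA of 3 embryos of one genotype, with 3 arrays per genotype, and the labels number the pools of each genotype from 1 to 3. The pools are dissected tissue, so fewer cells of a type and less RNA per cell cannot be told apart. The labels do not say which stretch of Wnt3a is altered in the null embryos.

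Definitive endoderm is the germ layer that forms the gut tube and its organs. Its cells leave the primitive streak and enter the outer layer of the embryo, where they mix with visceral endoderm, an older extraembryonic layer that also makes Sox17, Hhex, Cer1 and epithelial keratins. Keratins 8, 18 and 19 build the intermediate filaments of simple epithelia, and claudins seal the tight junctions between epithelial cells.

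The upstream sequences of Cer1, Foxa1 and Hhex are shown because these endoderm genes had higher values in the null pool of all 3 same-numbered pairs, as described below. Trh had the same pattern, and its sequence was searched but is not shown. RefSeq promoter windows (GRCm38.p6) matched 8 of the 10 genes, not Sox17 and Krt19, and the 250 bases before each annotated start were searched. Capitals mark the FOX core TGTTTA, which stands here as its reverse complement TAAACA.
Cer1, chr4:82885152-82885401, minus strand: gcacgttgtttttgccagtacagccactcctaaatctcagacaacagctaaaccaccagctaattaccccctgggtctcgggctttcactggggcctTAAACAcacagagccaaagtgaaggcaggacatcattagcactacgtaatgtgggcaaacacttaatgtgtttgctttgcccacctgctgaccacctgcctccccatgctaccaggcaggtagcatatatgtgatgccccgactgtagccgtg
Foxa1, chr12:57546112-57546361, minus strand: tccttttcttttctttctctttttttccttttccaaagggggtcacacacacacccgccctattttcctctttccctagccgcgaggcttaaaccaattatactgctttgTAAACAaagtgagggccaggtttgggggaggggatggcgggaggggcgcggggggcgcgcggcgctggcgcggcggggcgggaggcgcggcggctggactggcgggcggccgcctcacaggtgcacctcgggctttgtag
Hhex, chr19:37434591-37434840, plus strand: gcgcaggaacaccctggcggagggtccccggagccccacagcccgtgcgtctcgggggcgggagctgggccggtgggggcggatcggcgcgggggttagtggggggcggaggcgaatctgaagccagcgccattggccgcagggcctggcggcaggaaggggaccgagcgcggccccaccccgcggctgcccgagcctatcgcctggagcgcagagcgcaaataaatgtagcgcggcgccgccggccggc
The FOX core was found in 2 of the 9 windows, those of Cer1 and Foxa1, 153 to 148 and 140 to 135 bases before the start. It was in 12.0% of 32851 windows of this length over all genes. The Hhex and Trh windows did not hold it. The TCF/LEF core CTTTGA, the kind of site through which Wnt signalling acts on DNA, was in 0 of the 9 windows of these 8 genes and in 13.8% of all windows. The SOX core ACAAT was in 0 of the 9 windows and in 27.7% of all. The GATA core AGATAA was in the Krt8 window and in 9.99% of all. Both strands were searched, the 4 cores do not contain each other, and a core is a run of letters in a short window, not a measured site.

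The arrays were alike in scale. Median signals per array ran from 77.7 to 86.1 in null pools and 73.6 to 81.0 in wild-type pools. Wild-type pools 1 and 2 each stood apart in other values, and how these bear on the members was not tested. Wild-type pool 1 had almost no signal of the Y-linked gene Eif2s3y, at 4.31 against 1053 to 1788 on the other 5 arrays. Wild-type pool 2 had the highest summed signal of 14 visceral and yolk sac endoderm markers, at 103801, against 49549 to 71486 in null pools and 41611 and 54767 in the other wild-type pools. Wnt3a, the targeted gene, had signals of 961, 761 and 1009 in null pools 1, 2 and 3, and 864, 1058 and 996 in wild-type pools 1, 2 and 3, so its probe set does not tell the genotypes apart. Axin2 and Cdx1 were chosen because they were clear Wnt readouts in these same data. They therefore serve only as a scale for the members, and their values do not test the genotypes. They were 2.07-fold and 2.40-fold lower in null pools (limma, adjusted p = 0.425 and 0.344 over all probe sets), with groups that did not overlap. Both were called when the pool number was a block and limma's trend and robust options were on, at adjusted p of 0.00827 for Axin2 and 0.00349 for Cdx1. A further Axin2 probe set at low signals had 94.2, 53.6 and 40.5 in null pools, against 47.0, 47.5 and 53.6 in wild-type pools. Its groups overlapped and its log2 difference was 0.26, opposite in sign to the main set.

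None of the 14 member probe sets passed the test between genotypes. Limma on log2 signals called 0 of them, and 0% of all 45037 probe sets in either direction. With the pool number as a block and the trend and robust options it again called 0 of them, against 0.0178% of all probe sets higher and 0.0311% lower in null. At an unadjusted p under 0.05 the fit without block or options had 0 of the 10 genes by their main probe sets. That p was reached by 2.56% of all genes higher and 1.9% lower in null. With the block and options, unadjusted p was 0.00156 for Krt19, 0.00211 for Cer1, 0.00849 for Hhex and 0.0473 for Sox17 (limma, main probe sets). Their adjusted p were 0.272, 0.287, 0.464 and 0.651, and the share of all genes at that unadjusted level was not counted. By mean log2 signal 8 of the 10 genes were higher in null pools, against 50.8% of all genes, and 2 were lower, against 49.2%. The median log2 difference, null minus wild type, was 0.17 over the 10 genes and 0.00 over all genes. The 10 differences ran from -0.22 for Sox17 to 1.30 for Cer1. The null pool had the higher value in all 3 same-numbered pairs for 6 of 10 genes, Foxa1, Hhex, Cer1, Trh, Krt18 and Krt19, against 15.5% of all genes. Sox17 had the lower value in null in all 3 pairs, against 14.7% of all genes. With groups of 3, the smallest two-sided exact permutation p is 0.1.

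**Figure D1:**
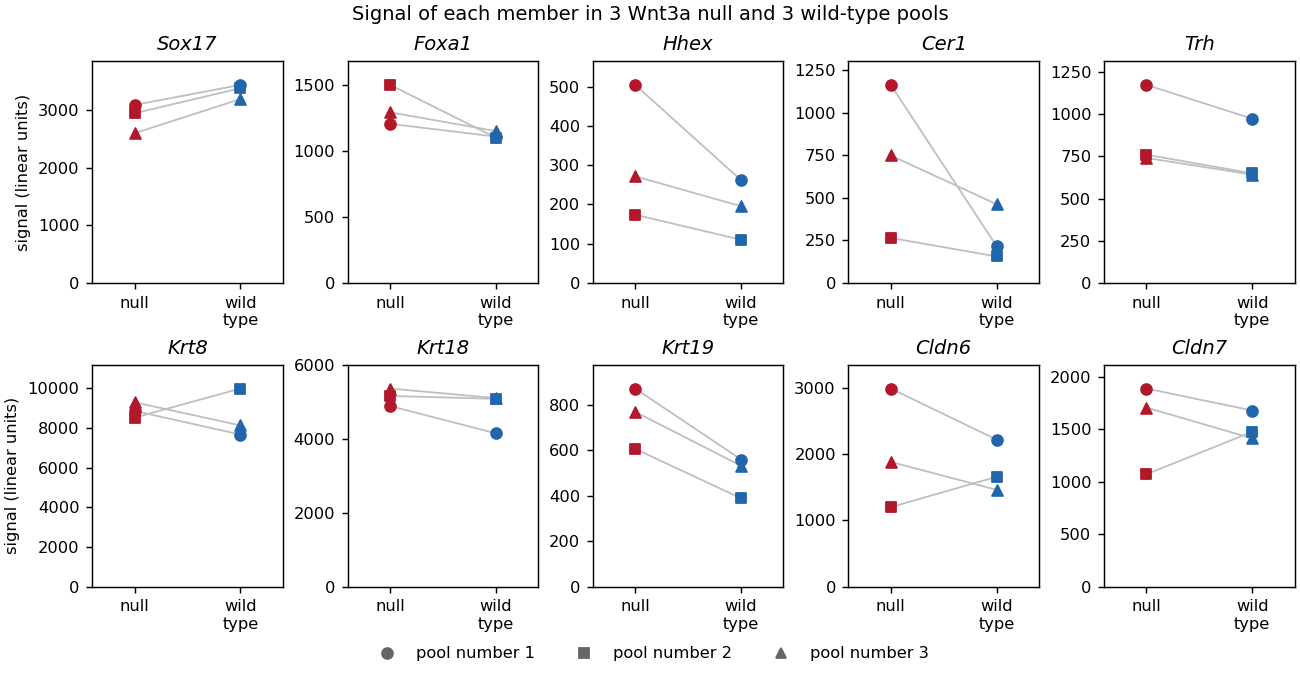
Signal (linear units, axes from 0) of each gene's main probe set in the 3 Wnt3a null pools (left, red) and the 3 wild-type pools (right, blue), with marker shapes for pool numbers 1 to 3 and grey lines joining pools of one number. Lines run downward to wild type in all 3 pairs for 6 genes and upward in all 3 for Sox17.

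Among the transcription factor genes, Sox17 had lower values in null pools, and Foxa1 and Hhex had higher ones. Sox17 encodes the HMG-box factor required to form gut endoderm, and is also made in endothelium and in visceral endoderm. The main probe set had signals of 3085, 2942 and 2596 in null pools 1, 2 and 3, against 3434, 3377 and 3188 in wild-type pools 1, 2 and 3. All 3 null values lay below all 3 wild-type values, as for 4.56% of all genes, but the groups overlapped after cyclic loess normalization. The fold was small, 1.16-fold lower in null (log2 difference -0.22, 95% interval -0.69 to 0.26, limma adjusted p = 1.00). This probe set has the suffix of sets in which some probes match other sequences as well. The further Sox17 probe set had 452, 306 and 284 in null pools, against 441, 485 and 486 in wild-type pools. It was lower in null pools 2 and 3, while pair 1 had nearly equal values, and the log2 difference was -0.47 (95% interval -1.10 to 0.16). Without pair 1 this further set had a log2 difference of -0.72, again with no call (limma, adjusted p = 0.881).

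Foxa1 encodes a forkhead factor that opens chromatin at endoderm genes. Its signals were 1204, 1499 and 1292 in null pools, against 1108, 1100 and 1150 in wild-type pools. The groups did not overlap, as for 5.56% of all genes, except after median centring, and the wild-type pools lay within 1.05-fold of each other. The log2 difference was 0.25 (SE 0.20, 95% interval -0.24 to 0.73), with the highest value in null pool 2. It was 0.16 without null pool 2 and 0.14 without pair 2. In pairs 1, 2 and 3 the difference was 0.12, 0.45 and 0.17.

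Hhex encodes a homeobox factor of anterior endoderm and of early endothelial and liver precursors. Its signals were 504, 174 and 272 in null pools, against 262, 110 and 196 in wild-type pools. The groups overlapped, but pool number ordered both genotypes in the same way, with pool 1 highest and pool 2 lowest in each. Within pairs the null pool was 1.93-fold, 1.58-fold and 1.39-fold higher. The unpaired log2 difference was 0.69 (SE 0.52, 95% interval -0.60 to 1.98), and with the replicate number as a block the unadjusted p was 0.0334 (limma, adjusted p = 0.841).

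Cer1 showed the widest difference and the widest spread of the 10 genes. It encodes Cerberus-like, a secreted antagonist of Nodal and BMP made in anterior visceral and definitive endoderm. The main probe set had 1162, 265 and 748 in null pools, against 215, 156 and 462 in wild-type pools. Null pools 1 and 3 lay above every wild-type pool, and null pool 2 lay between the wild-type values. The null mean was 725 ± 449 and the wild-type mean 278 ± 162 (SD, n = 3 pools each). By mean log2 signal null was 2.46-fold higher, with a log2 difference of 1.30 (95% interval -0.41 to 3.00, limma adjusted p = 1.00). Pair 1 had a 5.40-fold difference, against 1.70-fold in pair 2 and 1.62-fold in pair 3. Without null pool 1 the log2 difference was 0.83, and without wild-type pool 1 it was 1.19.

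The further Cer1 probe set had much lower signals and did not share the direction in all pairs. It had 126, 17.5 and 47.5 in null pools, against 18.6, 32.8 and 70.9 in wild-type pools. Only pair 1 was higher in null. Its log2 difference of 0.43 became -0.28 without null pool 1, -0.03 without wild-type pool 1 and 1.14 without null pool 2.

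Trh encodes the precursor of thyrotropin-releasing hormone, a peptide best known from the hypothalamus and transcribed in early embryonic endoderm. Its signals were 1174, 760 and 741 in null pools, against 973, 650 and 643 in wild-type pools. Pool 1 was the highest in both genotypes, and the genotypes overlapped. The pair differences were close to each other, at 0.27, 0.23 and 0.21 on the log2 scale, or 1.21-fold, 1.17-fold and 1.15-fold. The unpaired interval ran from -0.52 to 0.99, and the blocked fit gave an unadjusted p of 0.246 (limma, adjusted p = 0.860).

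**Figure D2:**
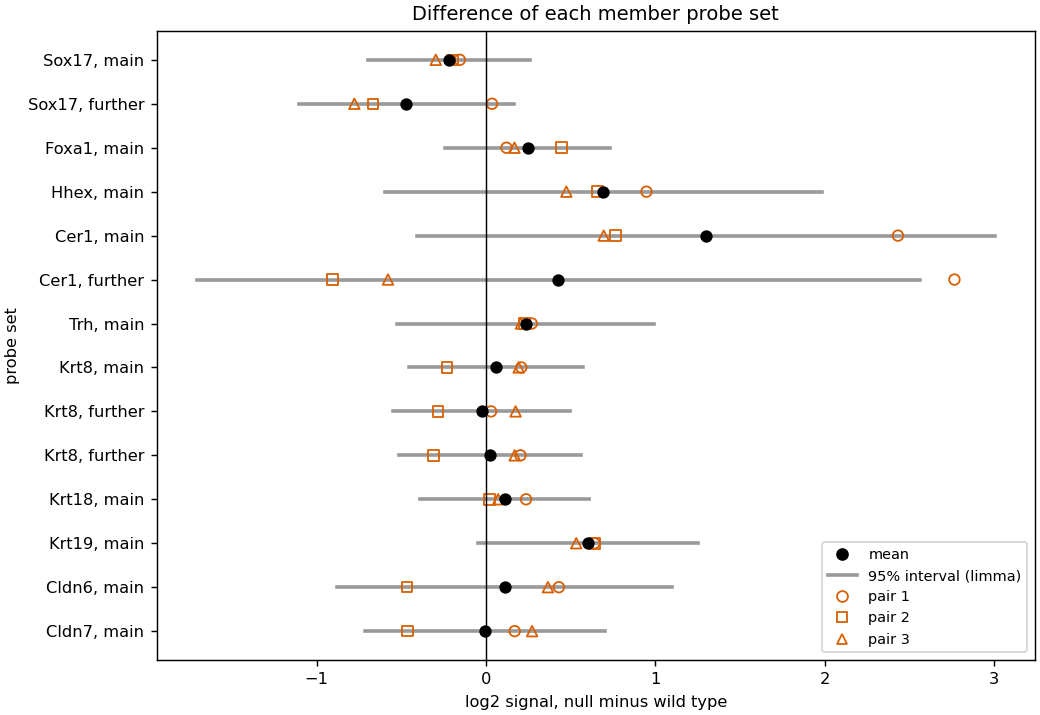
Log2 signal, null minus wild type, for the 14 probe sets of the 10 genes: black points are means of 3 against 3 pools, grey bars are 95% intervals from limma, and orange open marks are the 3 same-numbered pairs. All 14 intervals include 0, and the pair marks lie close together for Trh and Krt19 and far apart for Cer1.

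Of the keratin genes, Krt19 had the largest difference in value. Krt19, a keratin that pairs with Krt8 in simple epithelia, had signals of 871, 606 and 769 in null pools, against 559, 389 and 531 in wild-type pools. The groups did not overlap, and null was 1.56-fold, 1.56-fold and 1.45-fold higher in pairs 1, 2 and 3. The log2 difference was 0.60 (SE 0.26, 95% interval -0.04 to 1.25), with an unadjusted p of 0.0626 unpaired and 0.0313 with the block (limma, adjusted p = 1.00 and 0.838). It was the smallest p of the 14 probe sets in the unpaired fit. Hhex and Krt19 were the 2 members at an unadjusted p under 0.05 with the block alone, against 2.96% of all genes higher in null. None was lower at that p, against 2.13% of all genes.

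Krt8 and Krt18 encode partners that assemble into one filament, and in RefSeq they are neighbours on chromosome 15 with 0 protein-coding genes starting between them. Krt8 had 8864, 8519 and 9296 in null pools, against 7670, 9989 and 8132 in wild-type pools. The wild-type values lay on both sides of the null values, and the log2 difference was 0.06 (95% interval -0.46 to 0.57). The other Krt8 probe sets gave -0.03 (-0.55 to 0.50) and 0.02 (-0.52 to 0.56), with signs that turned under another normalization. Both have the suffix of sets that can match other sequences, and RefSeq lists a Krt8 pseudogene, so their signal may not be of Krt8 alone. On all 3 sets wild-type pool 2, the pool with the highest visceral endoderm marker sum, had the highest signal of the 6 pools, and the part of that tissue in the Krt8 values was not tested. Without wild-type pool 2 the log2 difference of the main set was 0.17, again with no call (limma, adjusted p = 0.983).

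Krt18 had 4895, 5167 and 5369 in null pools, against 4155, 5089 and 5109 in wild-type pools. Wild-type pool 1 was the lowest of the 6 for both Krt8 and Krt18. The Krt18 log2 difference was 0.11 (95% interval -0.39 to 0.61), and 0.01 without wild-type pool 1. Whether the 3 keratin genes differed from each other in their response was not tested.

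The claudin genes had a wide spread between pools beside their differences between genotypes. Cldn6, a claudin of embryonic epithelia, had 2991, 1201 and 1883 in null pools, against 2219, 1660 and 1462 in wild-type pools. Null pool 1 was the highest and null pool 2 the lowest of the 6, and pool 1 was also the highest of the wild-type pools. The log2 difference was 0.11 (95% interval -0.88 to 1.10), and it was -0.22 without null pool 1. Cldn7, a claudin of many simple epithelia, had 1887, 1071 and 1706 in null pools, against 1678, 1475 and 1413 in wild-type pools. Null pool 1 was again the highest and null pool 2 the lowest, with a log2 difference of -0.01 (95% interval -0.72 to 0.70). For both claudins pair 2 was lower in null, by -0.47 and -0.46 on the log2 scale, and pairs 1 and 3 were higher.

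Across the 10 genes, null pool 1 had the highest of the 6 values for 6 of them: Hhex, Cer1, Trh, Krt19, Cldn6 and Cldn7. Wild-type pool 2 had the lowest value for 4, namely Foxa1, Hhex, Cer1 and Krt19. The median deviation of the 10 genes from their 6-pool means was 0.43, -0.08 and 0.11 on the log2 scale in null pools 1, 2 and 3, and 0.02, -0.14 and -0.10 in wild-type pools 1, 2 and 3. In each genotype pool 1 had the highest value of its genotype for most of these genes, 7 of 10 in null and 6 of 10 in wild type. The like shares over all genes were not counted, so these ranks are not shown to be particular to the members. The median signal of the whole array was highest in null pool 1, at 86.1, and lowest in wild-type pool 1, at 73.6. Epcam, an epithelial adhesion gene chosen after its values were seen, had its highest values in pool 1 of each genotype. It had 7799, 3636 and 4802 in null pools, against 7335, 3707 and 3863 in wild type. Pkp2, a gene of the epithelial junction list below, went the other way, with its lowest values in pool 1 of each genotype. Its signals were 1013, 2237 and 1769 in null pools, against 975, 1898 and 1923 in wild type. How the rest of that list ranked the pools was not counted.

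The members also differed in how tightly they repeated. The pooled SD of log2 signal within a genotype was 0.10 for Sox17 and 0.12 for Foxa1, at percentiles 8.00 and 12.9 of the 8010 genes with a mean log2 of at least 8. It was 0.96 for Cer1 and 0.51 for Cldn6, at percentiles 99.6 and 95.2 of the same genes, whose median SD was 0.22. Sox17 and Foxa1 thus had small differences with no overlap between groups, while the larger difference of Cer1 came with a wide spread.

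Leaving out wild-type pool 1, wild-type pool 2 or null pool 1 kept these directions for the genes that were alike in all 3 pairs. For the main Sox17 set, Foxa1 and Krt19 no other outcome was possible, since their groups did not overlap. Without wild-type pool 1 the log2 difference was 0.97 for Hhex, 0.70 for Krt19, 0.43 for Trh, 0.24 for Foxa1 and -0.19 for the main Sox17 set. Without wild-type pool 2 it was 0.35 for Hhex, 0.96 for Cer1, 0.44 for Krt19, 0.14 for Trh, 0.23 for Foxa1, 0.16 for Krt18 and -0.21 for Sox17. Without null pool 1 it was 0.29 for Hhex, 0.49 for Krt19, 0.02 for Trh, 0.31 for Foxa1, 0.15 for Krt18 and -0.27 for Sox17. Without null pool 2 Hhex had a log2 difference of 1.06. None of these passed the test (limma, adjusted p of at least 0.956).

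**Figure D3:**
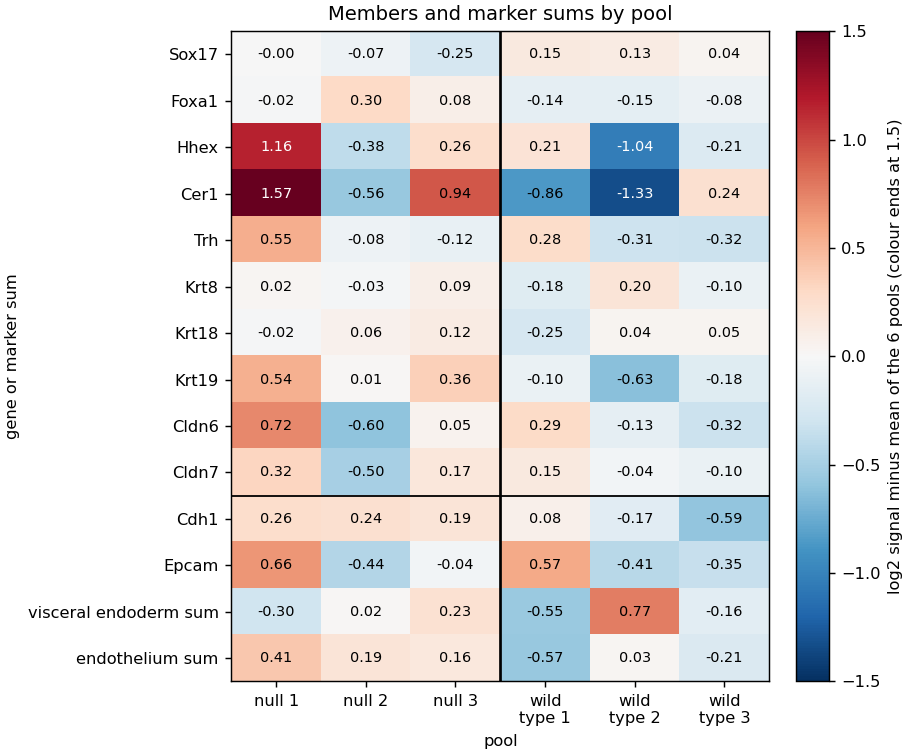
Log2 signal minus the mean of the 6 pools for the 10 genes, for Cdh1 and Epcam, and for the summed signals of visceral endoderm and endothelium markers, with null pools in the left 3 columns and wild-type pools in the right 3 (red higher, blue lower). Null pool 1 is high for 6 of the 10 genes, and wild-type pool 2 is low for Cer1 and Hhex and high for the visceral endoderm sum.

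The other genes of definitive endoderm and gut went both ways. Of 21 measured genes on this list 12 had higher and 9 lower means in null, with a median log2 difference of 0.20, and 0 passed the test in either direction (limma). Over the 11 of them with a mean log2 of at least 8, a limit chosen after the data were seen, 4 were higher and 7 lower in mean, and the median was -0.08. At an unadjusted p under 0.05 there were 2 higher and 1 lower. Sfrp5, a secreted Wnt inhibitor of anterior foregut endoderm, had 252, 217 and 278 in null pools, against 118, 78.3 and 73.1 in wild-type pools. Otx2, a homeobox gene of anterior endoderm and forebrain, had 1367, 216 and 468 in null pools, against 129, 87.6 and 60.7 in wild-type pools. For both genes every null pool lay above every wild-type pool, and for Otx2 null pool 1 was the highest, as for Cer1. Otx2 had an adjusted p of 0.846 in the unpaired limma fit, and passed the test at 0.0373 with the block and the trend and robust options. Dkk1, a secreted Wnt antagonist that is also a Wnt target, went the other way, with 313, 167 and 155 in null pools, against 336, 539 and 490 in wild-type pools.

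Of 35 measured genes of epithelial junctions, keratins and epithelial regulators, 18 had higher and 17 lower means in null. The median log2 difference was 0.00, 0 genes passed the test (limma), and at an unadjusted p under 0.05 there was 1 higher and 0 lower. Evpl, the envoplakin gene, had 93.0, 74.2 and 79.3 in null pools, against 23.2, 53.2 and 24.3 in wild-type pools. Cldn3, a claudin gene, had 171, 100.2 and 65.3 in null pools, against 51.9, 58.6 and 57.0 in wild-type pools. Ppl, the periplakin gene, was lower in mean, with 128, 191 and 156 in null pools, against 279, 186 and 234 in wild-type pools. Cdh1, the E-cadherin gene that marks epithelia, had 4746, 4689 and 4523 in null pools, against 4195, 3517 and 2630 in wild-type pools, with groups that did not overlap and a log2 difference of 0.46 (limma, adjusted p = 1.00).

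**Figure D4:**
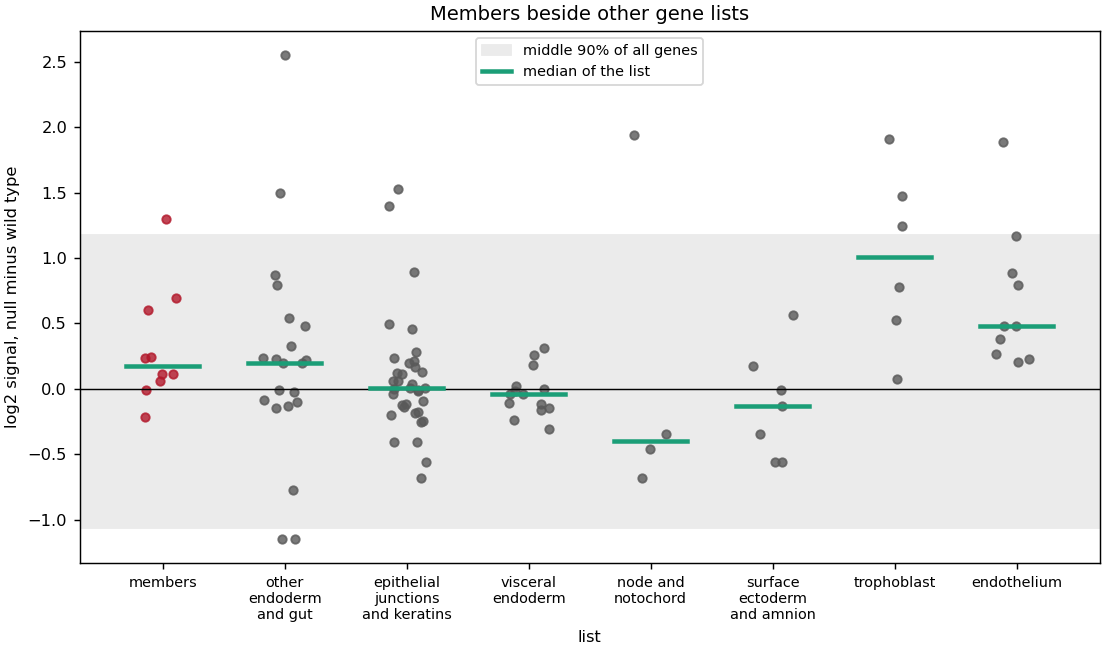
Log2 signal, null minus wild type, for the 10 members (red) and for 7 other gene lists (grey), 1 point per gene by its main probe set, with the median of each list in green and the middle 90% of all genes shaded. The members' median is 0.17, and the endothelium and trophoblast medians of 0.48 and 1.01 lie above it.

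The markers of other cell types that the dissections could hold were set beside the members. The 14 visceral and yolk sac endoderm markers had a median log2 difference of -0.04, with 5 higher and 9 lower in mean, and their summed signal overlapped between genotypes (49549 to 71486 in null pools, against 41611 to 103801 in wild type). Their 3 smallest p belonged to Lrp2, an endocytic receptor gene, Fgb, a fibrinogen gene, and Apom, an apolipoprotein gene, at log2 differences of 0.31, -0.24 and -0.31. None of these markers was near 0 in any pool, and the lowest signal was 93.8, for Sox7 in wild-type pool 1.

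All 10 endothelium markers had higher means in null, with a median of 0.48, 0 past the test (limma) and 0 at an unadjusted p under 0.05. Of the 10, 3 lay below a mean signal of 50. In all 3 pairs 3 of the 10 were higher in null, against 15.5% of all genes. Their summed signal was 2526 to 3004 in null pools and 1525 to 2309 in wild-type pools, without overlap. Kdr, a VEGF receptor gene, had a log2 difference of 0.48 and Etv2, an endothelial regulator, of 0.38, while Pecam1 (1.89) lay at signals of 3.45 to 51.7. Hhex is also made in endothelial precursors and Sox17 in endothelium, and the part of that tissue in their values was not tested.

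The 6 trophoblast markers all had higher means in null, with a median of 1.01, 0 past the test (limma) and 1 at an unadjusted p under 0.05. Their sum overlapped, at 6067 to 7618 in null pools against 4852 to 8220 in wild type. Elf5 had a log2 difference of 1.91, Plac1 of 0.78 and Tpbpa of 1.25, and 2 of the 6 lay below a mean signal of 50. The 2 with a mean log2 of at least 8, Plac1 and Rhox5, had a median of 0.42, with -0.06 in pair 2. Trophoblast makes Krt8, Krt18 and Krt19 as well, and its part in their values was not tested.

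The 4 node and notochord markers had a median of -0.40, with sums of 335 to 1098 in null pools against 367 to 1711 in wild type. Nog was higher at very low signals (log2 difference 1.94), and Foxj1 and Shh were lower in mean (-0.68 and -0.46). The 7 surface ectoderm and amnion markers had a median of -0.13, or -0.0054 over the 3 with a mean log2 of at least 8, with sums of 3533 to 4770 in null pools against 3060 to 4279 in wild type. Tfap2c was higher in mean (0.57), and Wnt6 and Grhl3 were lower (-0.56 and -0.35).

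The label of the group was set beside its defining markers. Most of these are the members themselves, so their values cannot test the label. All 6 definitive endoderm markers (Foxa2 beside the 5 members Sox17, Foxa1, Hhex, Cer1 and Trh) and all 7 simple epithelium markers (Cdh1 and Epcam beside the 5 keratin and claudin genes) were measured, and 0 of these 13 had a mean signal below 50. Their summed signals were 6010 to 7729 in null pools against 5799 to 6295 in wild type for endoderm, and 24888 to 32054 in null pools against 23140 to 27812 in wild type for epithelium. Visceral endoderm markers had signal in all pools. That layer also makes Sox17, Hhex, Cer1 and epithelial keratins, so these may not mark definitive endoderm alone. The part of that layer in their values was not tested.

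The genes most like the members over the 6 arrays were found by Pearson correlation with the mean of the 10 standardised log2 profiles, among 8001 genes with a mean log2 of at least 8. They were Mastl (r = 0.990), Swt1 (0.983), Pald1 (0.979), Krcc1 (0.974) and Ift172 (0.972), as a description of 6 arrays that share 2 genotypes. Mastl, a mitotic kinase gene, had 479, 334 and 386 in null pools, against 343, 333 and 341 in wild-type pools. Null pool 1 was the highest and the wild-type pools were close to each other.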

How the data were processed

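Transcripts were measured on 6 Affymetrix mouse whole-genome arrays, 3 of Wnt3a null and 3 of wild-type pools. Each array carried 600 ng of amplified RNA pooled from 3 embryos, each amplified from 30 to 50 ng, per the labels' protocols.

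The deposited table holds 1 linear intensity per probe set and array. The submitters' processing notes name RMA, but the deposited values are linear, differ in distribution between arrays and have a mean of 500 on each array after trimming 2% at each end. No source used here names the step that made them, so what background was removed is unknown. The values were turned to log2 with no floor. Low signals vary widely on that scale, and 3 arrays per group limit the precision.

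Of 45101 probe sets, 64 controls were dropped. Of the rest 34945 have 1 gene symbol in the platform annotation, 932 have several and 9160 are not listed. The genotypes were compared by limma 3.58.1 under R 4.3.3, using lmFit and plain eBayes, with two-sided p-values, Benjamini-Hochberg adjustment over 45037 probe sets and a threshold of 0.05. The fit was tried on simulated data with shifts larger than any member's mean difference and independent noise between arrays. That trial does not cover differences of the members' size or likeness between same-numbered pools. Nothing in the labels says whether pools share litters. The p-values of this fit treat the pools as independent, which the labels do not settle.

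Same-numbered arrays of the genotypes deviated together from their genotype means, with correlations of 0.422, 0.454 and 0.282 over the 18088 probe sets above a mean log2 of 7. Since each exceeds 0.1, pool numbers were read as pairs and used as a block in further fits. The main fit and its intervals had no block. Over all 45037 probe sets the correlations were 0.054, 0.052 and 0.034, below that bound.

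Members and lists were chosen with earlier results of these data known. Named genes were the members, Wnt3a, Axin2, Cdx1, 3 genes per list by smallest p and the 5 genes most like the members. Epcam and Pkp2 were added after their values were seen. List genes without a probe set of their own symbol were not analysed here.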

Additional observations from a re-analysis of the deposited data

How the results depend on the processing

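Over 18 alternatives (the replicate block, trend and robust options, 1 probe set per gene, a filter at the median signal, log2(signal + 50), 3 normalizations and leaving out arrays or pairs) 0 member probe sets were called in any. Over all probe sets 0 were called by the planned fit, 0 with the replicate block, 22 when trend and robust options were added to the replicate block, and 1 with those options alone. The block alone called none of the named genes. Among the 22 were Axin2, Cdx1 and Otx2, at adjusted p of 0.00827, 0.00349 and 0.0373, against 0.425, 0.344 and 0.846 in the planned fit, and no member. Over all probe sets, dim ones included, the lowest same-number correlation was 0.034, against 0.282 for brighter ones.

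The number of genes with a higher mean in null ran from 6 to 9 of 10, and the median log2 difference from 0.10 to 0.29 when arrays or pairs were left out. Non-overlapping genes higher in null numbered 2, against 5.56% of all genes. They numbered 1 with median centring (Foxa1 overlapped), against 4.2% of all genes, and 3 with cyclic loess and with quantile normalization (Krt18 added), against 5.17% and 5.01%. They numbered 2 to 6 with arrays or pairs left out, where fewer values are compared and 9.66% to 18.3% of all genes did not overlap in that direction. Sox17 no longer separated with cyclic loess, which left 0 lower, and the cause was not tested. Sox17, Foxa1, Hhex, Trh, Krt18, Krt19 and the main Cer1 set kept their direction in every alternative run. By their main probe sets all were alike in all 3 pairs, so leaving out a pair could not turn them. Where groups did not overlap, leaving out 1 array could not either.

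Some directions turned when arrays or pairs were left out. The further Cer1 set (main value 0.43) ranged from -0.74 to 1.14. Ranges for sets with smaller differences were -0.22 to 0.44 for Cldn6, -0.17 to 0.24 for Cldn7, and -0.020 to 0.20 for the main Krt8 set. They were -0.081 to 0.19 and -0.13 to 0.10 for the other Krt8 sets, and -0.23 to 0.086 for Wnt3a. One further Krt8 set (main value 0.02) was -0.031 with median centring, and the other (main value -0.03) was 0.024 with cyclic loess and 0.0024 with quantile normalization. The cause was not tested. Over genes with a mean log2 of at least 8, chosen after the data were seen, the endoderm and gut list had a median of -0.084 (main value 0.20) and the trophoblast list 0.42 (main value 1.01).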
